A study of Mus musculus with 4 samples.

Results

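The ADAR family of RNA editing enzymes was followed through single hippocampal cells of mice that carry an extra copy of Adarb1. Its 3 genes, Adar (ENSMUSG00000027951), Adarb1 (ENSMUSG00000020262) and Adarb2 (ENSMUSG00000052551), were chosen by symbol from the 31055 genes that each count matrix lists, and all 3 were among the 17523 genes detected in more than 3 kept cells. Dp(10)2Yey mice (labelled Dp2Yey) are a model of Down syndrome with a duplicated stretch of chromosome 10, and they were compared with wild-type (WT) littermates. The mice were males aged 3 months on the C57BL/6J background, with 2 per genotype and 1 10x 3′ library per mouse. Adarb1 lies in the duplicated stretch and has 3 copies in Dp(10)2Yey cells, whereas Adar and Adarb2 lie on other chromosomes and keep 2 copies, which makes them controls. Single-cell suspensions were made on 2 days with 1 mouse of each genotype on each, but the sources do not say which replicates were prepared together.

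Levels are counts of unique molecular identifiers (UMIs), each of which stands for 1 captured RNA molecule, and CPM is a gene's UMIs per 1000000 UMIs of the same cells. The deposited matrices held 6464 barcodes with 24575782 UMIs, of which 6262 cells with 23622950 UMIs were kept. WT replicate 1 gave 1019 kept cells with 2960353 UMIs and a median of 2082 per cell, and WT replicate 2 gave 1684 cells with 6763445 UMIs and a median of 3697. Dp(10)2Yey replicate 1 gave 1352 cells with 5024785 UMIs and a median of 3398, and Dp(10)2Yey replicate 2 gave 2207 cells with 8874367 UMIs and a median of 3677. WT replicate 1 was thus the shallowest library in cells, UMIs and UMIs per cell. Between libraries, 8 cell barcodes were shared over all pairs. The ADAR genes were sparse, with 370 Adar, 352 Adarb1 and 223 Adarb2 UMIs in all kept cells.

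ADAR enzymes bind double-stranded RNA and convert adenosine to inosine, which ribosomes and sequencers read as guanosine. Adar encodes ADAR1, an interferon-inducible editor that marks self double-stranded RNA so that innate sensors ignore it, and Adarb1 encodes ADAR2, which recodes neuronal transcripts such as the one for the glutamate receptor subunit GluA2. Adarb2 encodes ADAR3, a brain protein that binds the same kind of RNA but has no known editing activity. UMI counts give the level of each transcript and do not show editing itself.

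The levels of the 3 genes differ between the cell classes described here, so the sequences at their starts are shown. RefSeq promoters (GRCm38.p6, 250 bases before to 50 bases after a start) were found for all 3 genes, with 5 entries, 3 of them for Adar. Capitals mark GGGCGG, an Sp-type GC box, on either strand (CCGCCC where it lies on the other), and GAAANNGAA, the core of an interferon-stimulated response element; a longer form with 1 more A at its end was searched too. Adarb1 is shown from chr10:77418224-77418523 on the minus strand, Adarb2 from chr13:8202616-8202915 on the plus strand, and Adar at 2 of its entries on the plus strand, the middle one from chr3:89714988-89715287 and the downstream one from chr3:89730468-89730767.
Adarb1: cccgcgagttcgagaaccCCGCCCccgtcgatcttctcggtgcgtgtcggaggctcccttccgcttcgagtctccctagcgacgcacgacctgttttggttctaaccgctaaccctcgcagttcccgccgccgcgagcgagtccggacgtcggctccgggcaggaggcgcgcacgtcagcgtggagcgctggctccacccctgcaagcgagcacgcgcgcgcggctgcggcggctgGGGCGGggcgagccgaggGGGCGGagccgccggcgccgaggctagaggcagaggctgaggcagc
Adar middle entry: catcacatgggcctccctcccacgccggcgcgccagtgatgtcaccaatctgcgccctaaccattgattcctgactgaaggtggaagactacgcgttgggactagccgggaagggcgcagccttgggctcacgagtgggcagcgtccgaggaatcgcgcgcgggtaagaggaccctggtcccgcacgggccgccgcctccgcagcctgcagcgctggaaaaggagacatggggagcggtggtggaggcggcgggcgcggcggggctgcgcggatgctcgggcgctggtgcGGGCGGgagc
Adar downstream entry: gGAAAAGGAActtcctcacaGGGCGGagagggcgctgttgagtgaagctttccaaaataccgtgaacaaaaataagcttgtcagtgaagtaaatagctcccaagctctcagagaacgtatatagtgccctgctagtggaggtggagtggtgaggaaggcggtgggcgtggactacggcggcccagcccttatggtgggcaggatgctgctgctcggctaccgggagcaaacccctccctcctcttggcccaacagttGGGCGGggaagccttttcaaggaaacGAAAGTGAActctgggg
Adarb2: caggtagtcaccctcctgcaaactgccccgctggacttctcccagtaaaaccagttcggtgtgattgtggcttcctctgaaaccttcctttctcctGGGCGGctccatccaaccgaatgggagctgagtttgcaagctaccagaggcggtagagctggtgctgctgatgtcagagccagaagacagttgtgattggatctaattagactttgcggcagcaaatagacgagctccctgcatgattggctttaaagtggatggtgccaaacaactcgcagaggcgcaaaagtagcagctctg
The Adarb1 promoter had a GC content of 73.0% with 46 CpG and 3 GGGCGG, and the middle Adar promoter had 70.0% with 34 CpG and 1 GGGCGG. The Adar entry further upstream, chr3:89714772-89715071, which is not shown, had 50% with 6 CpG and 0 GGGCGG. The Adarb2 promoter had 52.7% with 9 CpG and 1 GGGCGG, beside a median of 52.7% and 7 CpG over 32851 promoters. The downstream Adar promoter held 2 GAAANNGAA and 2 GGGCGG. Of all promoters, 35.7% held GGGCGG, 8.56% GAAANNGAA, 3.44% its longer form and 13.6% TATAAA, and neither of the last pair was in the sequences shown. A match is a description of the letters, and no binding was measured.

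Cells were put in classes by markers that do not include the ADAR genes, 8 per class, of which a cell had to show at least 3 and more than of any other class. The labelled tissue showed its glial, vascular and neuronal markers, and mature neurons made up 2.57% of kept cells. Of the kept cells, 8 classes had at least 10 cells in every library: 2574 microglia, 1043 mature oligodendrocytes, 942 astrocytes, 364 oligodendrocyte precursors, 249 endothelial cells, 161 mature neurons, 130 immature neurons and 123 ependymal cells. Median cells of these classes showed 5 to 8 of their own 8 markers and at most 3 of the next class. Among the 161 mature neurons, 22 showed only 3 of their markers and 30 led the next class by 1 marker. When all kept cells were clustered, 116 of the mature neurons lay in a cluster whose most frequent class was theirs. For microglia this held for 2521 of 2574. Ependymal cells made up 5.40% of WT replicate 1 and 1.01% to 1.54% of the other libraries, and mature neurons made up 3.68% of WT replicate 2 and 1.70% to 2.45% of the others. Another 400 cells fell in no class.

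Adarb1 UMIs were more frequent in both Dp(10)2Yey libraries than in both WT libraries. In all kept cells, Adarb1 had 31 UMIs (10.5 CPM) in WT replicate 1 and 73 (10.8 CPM) in WT replicate 2, against 81 (16.1 CPM) in Dp(10)2Yey replicate 1 and 167 (18.8 CPM) in Dp(10)2Yey replicate 2. The means were 10.6 ± 0.227 CPM in WT and 17.5 ± 1.91 CPM in Dp(10)2Yey (SD, n = 2 each), and the groups did not overlap. Pooled over libraries, the ratio of Dp(10)2Yey to WT was 1.67 with a 95% counting interval of 1.32 to 2.12, which holds the 1.5 given by 3 copies against 2. Such intervals cover counting error only and leave out differences between mice.

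In the edgeR fit over all genes, which takes the library as the unit, the log2 fold of Adarb1 was 0.72 (SE 0.21), a fold of 1.65, with an unadjusted p of 0.00909 and an adjusted p above 0.99, so Adarb1 did not pass the threshold of 0.01. None of 13804 genes passed it (0%), while 377 (2.73%) had an unadjusted p under 0.05 and DESeq2 called 3, namely Fn1, Tyr and Tac2. Without WT replicate 1 edgeR called 12 genes, and without Dp(10)2Yey replicate 2 it called Ccl7, with no ADAR gene among them. The genes named here are outside the family and are named after their values were seen. The p-values weigh the genotype against the spread between only 2 mice per genotype. Of all genes tested, 13.4% had both Dp(10)2Yey libraries above both WT libraries, as Adarb1 did.

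In all cells, the genotype groups of each control gene overlapped. Adar, the ADAR1 gene, had 49 UMIs (16.6 CPM) and 108 (16.0 CPM) in WT replicates 1 and 2, and 70 (13.9 CPM) and 143 (16.1 CPM) in Dp(10)2Yey replicates 1 and 2. The groups overlapped, with means of 16.3 ± 0.413 CPM in WT and 15 ± 1.54 CPM in Dp(10)2Yey (SD, n = 2 each). The pooled Adar ratio was 0.949 with a counting interval of 0.769 to 1.17, which leaves out 1.5, and the fitted log2 fold was −0.10 (SE 0.20) but 0.22 when every library was thinned to the size of the smallest.

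Adarb2, the ADAR3 gene, had 24 UMIs (8.11 CPM) and 94 (13.9 CPM) in WT replicates 1 and 2, and 44 (8.76 CPM) and 61 (6.87 CPM) in Dp(10)2Yey replicates 1 and 2. WT replicate 2 stood above the other 3 libraries, and the groups overlapped. A single mature neuron of WT replicate 2 held 25 Adarb2 UMIs, while no other cell held more than 3. Without that cell the library had 69 Adarb2 UMIs (10.2 CPM). The pooled Adarb2 ratio was 0.623 with a counting interval of 0.474 to 0.817, below 1. The fitted log2 fold of Adarb2 was −0.56 (SE 0.33) with an adjusted p above 0.99, and it was −0.06 without WT replicate 2.

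**Figure D1:**
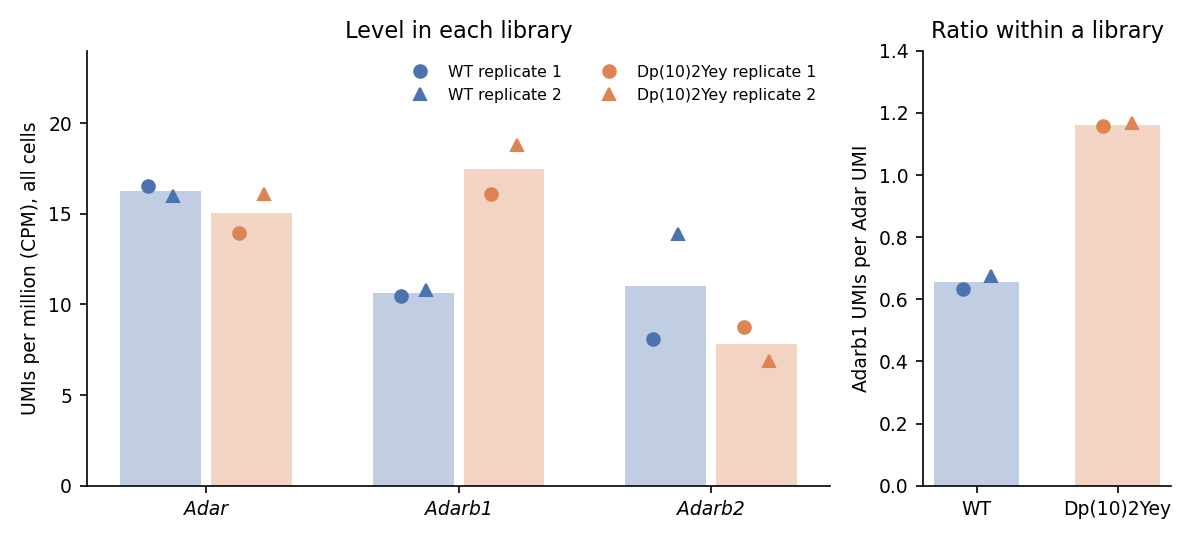
Left, CPM in all cells for each ADAR gene, with points for the 4 libraries and bars for the mean of the 2 libraries of a genotype. Right, Adarb1 UMIs per Adar UMI within each library, which lay at 0.633 and 0.676 in WT and at 1.16 and 1.17 in Dp(10)2Yey.

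Counting Adarb1 against Adar inside each library needs no scaling between libraries. There were 0.633 and 0.676 Adarb1 UMIs per Adar UMI in WT replicates 1 and 2, and 1.16 and 1.17 in Dp(10)2Yey replicates 1 and 2. Both Dp(10)2Yey values lay above the WT values, by a mean of 0.508, a fold of 1.78. The exact two-sided permutation test gave p = 0.333, the smallest that 2 libraries against 2 can give. Ependymal cells were rich in Adarb1 and differed in share between libraries, and without them the ratios were 0.565 and 0.631 in WT and 1.03 and 0.95 in Dp(10)2Yey.

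Adarb1 was also more frequent in cells with many mitochondrial UMIs. In the 532 cells with over 20% mitochondrial UMIs it had 37 UMIs (43.9 CPM), against 13.8 CPM in the other cells, while Adar had 17.8 against 15.6 CPM. Dp(10)2Yey replicate 1 held 21 of those 37 Adarb1 UMIs. With these cells removed, the Adarb1 log2 fold was 0.63 and the ratios of Adarb1 to Adar were 0.630 and 0.644 in WT and 0.896 and 1.14 in Dp(10)2Yey, so the groups were still apart.

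Adarb1 (chr10:77290726-77418270, minus strand) was among many genes of its segment with this direction. The segment from Prmt2 to Pdxk (chr10:76207222-78464975) holds 62 annotated protein-coding genes, of which 33 had counts in kept cells and 31 were tested. Of these, 29 had a log2 fold above 0, where the share over all genes was 51.3%. Both Dp(10)2Yey libraries were above both WT libraries for 29, where the share over all genes was 13.4%. The median log2 fold of the 31 was 0.59, beside 0.01 for all genes tested and 0.58 for a copy ratio of 1.5. The edgeR test called 0 of them, and 23 had an unadjusted p under 0.05, beside 2.73% of all genes.

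Adarb1 ranked 6 among the 31 by log2 fold. Its nearest tested neighbours, on either side, were Pofut2, which encodes a fucosyltransferase, with 0.61 (SE 0.16), and Fam207a with 0.56 (SE 0.22). The highest was 1810043G02Rik at 0.97. The collagen VI genes Col6a1 (−2.0) and Col6a2 (−1.28) lay below 0, with Col6a1 at 3 and 105 UMIs in WT replicates 1 and 2 and at 1 and 34 in Dp(10)2Yey, and are named after their values were seen.

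**Figure D2:**
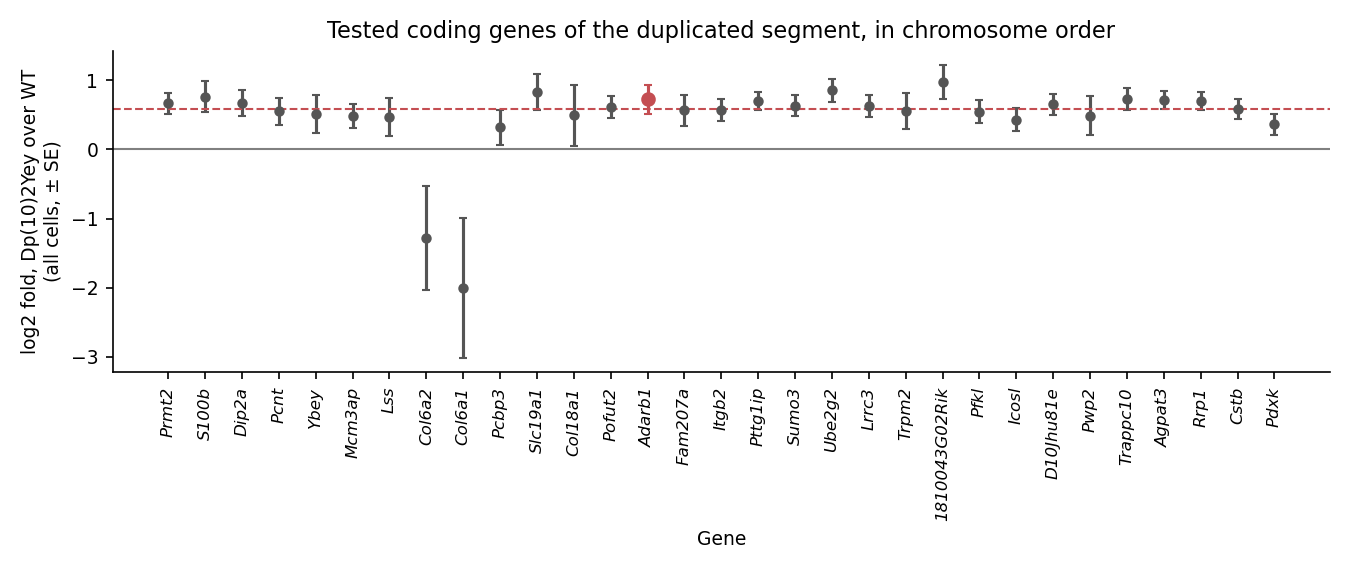
Log2 fold of Dp(10)2Yey over WT in all cells, with SE, for the 31 tested coding genes of the duplicated segment in chromosome order, where the dashed line marks the copy ratio of 1.5. Adarb1, in red, lies at 0.72 among 29 genes above 0.

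Within cell classes, Adarb1 was clearest in microglia, neurons and ependymal cells. In microglia it had 8 UMIs (6.45 CPM) and 13 (5.26 CPM) in WT replicates 1 and 2, and 22 (11.8 CPM) and 48 (13 CPM) in Dp(10)2Yey replicates 1 and 2. Both Dp(10)2Yey libraries were thus above both WT libraries, as for 17.4% of genes tested in microglia. The pooled ratio was 2.23 (counting interval 1.35 to 3.82), and the log2 fold was 1.10 (SE 0.37), with an unadjusted p of 0.00947 and an adjusted p = 0.998, where the adjusted p ran from 0.491 to above 0.99 over the alternatives. Microglial Adar overlapped between the groups, at 16.9 and 13.8 CPM in WT and 14.5 and 13.5 CPM in Dp(10)2Yey. Microglia accordingly held 0.381 and 0.382 Adarb1 UMIs per Adar UMI in WT and 0.815 and 0.960 in Dp(10)2Yey.

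In mature neurons, Adarb1 had 3 UMIs (54.2 CPM) and 19 (49.3 CPM) in WT replicates 1 and 2, and 10 (99.0 CPM) and 24 (87.7 CPM) in Dp(10)2Yey replicates 1 and 2. The groups did not overlap, which held for 23.7% of genes tested in this class. Its pooled ratio was 1.82 (1.03 to 3.26) and its log2 fold 0.79 (SE 0.47). In ependymal cells, Adarb1 had 5 UMIs (36.2 CPM) and 8 (54.4 CPM) in WT and 9 (86.9 CPM) and 34 (93.3 CPM) in Dp(10)2Yey, again without overlap, as for 17.9% of genes. The pooled ratio there was 2.02 (1.06 to 4.09) and the log2 fold 0.95 (SE 0.48). Neither class passed the test, with adjusted p-values above 0.99 in both.

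Astrocytes held fewer Adarb1 UMIs, 1 (4.21 CPM) and 4 (7.51 CPM) in WT and 8 (13.8 CPM) and 14 (15.5 CPM) in Dp(10)2Yey. The order was the same, which 18% of tested genes showed there, but the counting interval of the ratio ran from 0.843 to 7.71 and Adarb1 was too sparse to be tested. Oligodendrocyte precursors overlapped, with 39.0 and 15.8 CPM in WT and 28.9 and 38.9 CPM in Dp(10)2Yey. Their log2 fold was 0.49 (SE 0.48), and −0.16 without WT replicate 2, so no direction holds there. In mature oligodendrocytes, Adarb1 had 0 and 7 UMIs in WT and 9 and 1 in Dp(10)2Yey, a spread within each genotype that left no difference detectable at this depth. Immature neurons and endothelial cells held only 5 and 8 Adarb1 UMIs.

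Adar had overlapping groups in 5 of the 8 classes. Both Dp(10)2Yey libraries were above both WT libraries in endothelial cells, at 19.3 and 24.3 CPM in WT and 40.9 and 44.2 CPM in Dp(10)2Yey, as for 16.3% of genes, with a log2 fold of 0.95 (SE 0.53) and an adjusted p above 0.99. The same order held in oligodendrocyte precursors (16.5% of genes), on 18 Adar UMIs. In mature oligodendrocytes, where 14.8% of genes showed that order, Adar and Adarb1 both overlapped. Adar had a log2 fold of −0.14 (SE 0.29) in microglia, 0.37 (SE 0.53) in mature oligodendrocytes, where it was −0.10 without WT replicate 2, and −0.07 (SE 0.48) in astrocytes, where it was 0.04 without Dp(10)2Yey replicate 1. In ependymal cells, Adar had the opposite order, with 3 UMIs (21.7 CPM) and 5 (34 CPM) in WT and 0 and 3 (8.23 CPM) in Dp(10)2Yey. The groups did not overlap, as for 13.3% of genes tested in this class, and the pooled ratio was 0.229 (counting interval 0.0391 to 0.953), on 11 UMIs that were too few for a test.

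Adarb2 could be compared in the 2 classes that held most of it. In oligodendrocyte precursors it had 20 UMIs (86.6 CPM) and 35 (78.9 CPM) in WT and 35 (84.2 CPM) and 41 (72.5 CPM) in Dp(10)2Yey. These values overlapped, with a ratio of 0.95 (0.663 to 1.37), and the log2 fold was −0.09 (SE 0.28) but 0.27 with thinned sums and 0.02 without Dp(10)2Yey replicate 2. In mature neurons, Adarb2 had 3 UMIs (54.2 CPM) and 49 (127 CPM) in WT and 2 (19.8 CPM) and 13 (47.5 CPM) in Dp(10)2Yey. Both WT libraries were above both Dp(10)2Yey libraries, as for 12.9% of genes tested there, with a pooled ratio of 0.339 (0.177 to 0.612), a log2 fold of −1.57 (SE 0.52), an unadjusted p of 0.00846 and an adjusted p = 0.740, which ran from 0.172 to above 0.99 over the alternatives. The neuron with 25 Adarb2 UMIs carries much of this: without it WT replicate 2 had 24 UMIs (65.8 CPM). Without WT replicate 2 as a whole, Adarb2 was too sparse in neurons to be tested. With other libraries left out in turn, its log2 fold in neurons ran from −2.47 to −1.35.

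**Figure D3:**
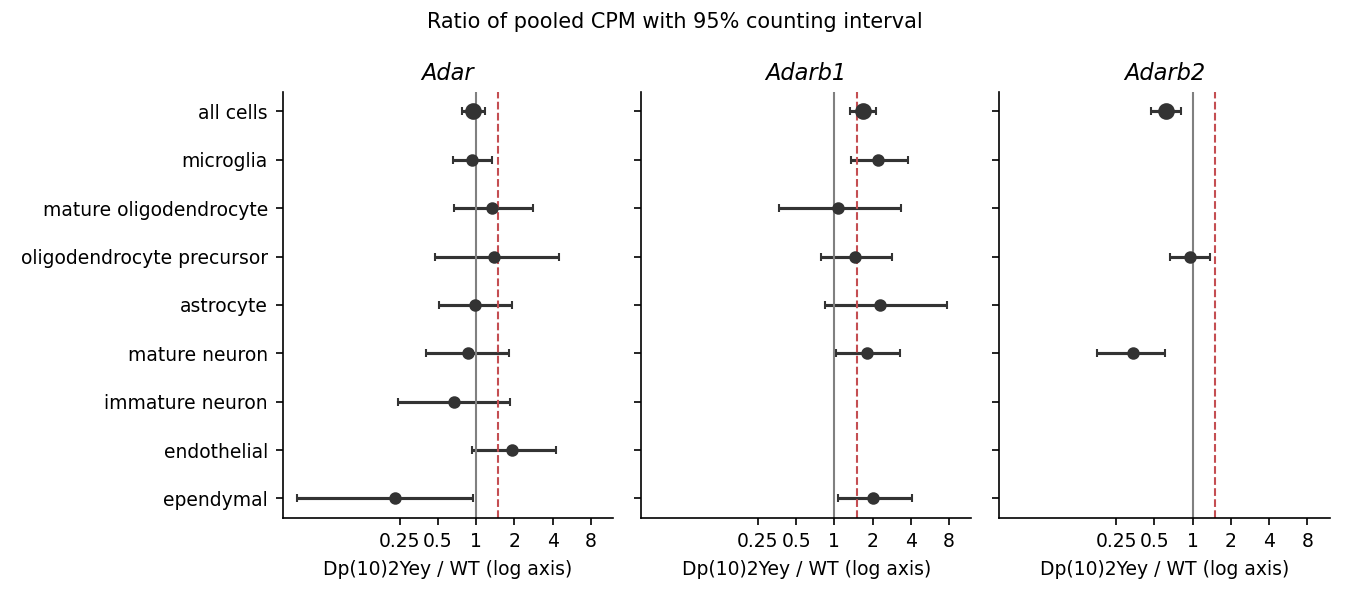
Ratio of pooled CPM in Dp(10)2Yey to WT, on a log axis, with 95% counting intervals for all cells and each class where a gene had at least 10 UMIs in all. The dashed line marks 1.5, and the Adarb1 intervals lay above 1 in all cells, microglia, mature neurons and ependymal cells.

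No gene passed the threshold within a class by edgeR, that is 0% in microglia, mature oligodendrocytes, oligodendrocyte precursors, astrocytes, mature neurons, immature neurons, endothelial and ependymal cells. At an unadjusted p under 0.05 there were 290 genes in microglia, 220 in mature oligodendrocytes, 290 in oligodendrocyte precursors, 290 in astrocytes, 188 in mature neurons, 91 in immature neurons, 176 in endothelial and 105 in ependymal cells. DESeq2 called 2, Gm42418 and Lars2 in astrocytes, named after their values were seen. EdgeR calls summed over classes numbered 99 without WT replicate 1, 53 without WT replicate 2, 184 without Dp(10)2Yey replicate 1 and 115 without Dp(10)2Yey replicate 2, where the lone library of a genotype is assumed to vary like the others, and 0 of them were ADAR genes. Whether the genotype effect differs between classes was tested by an interaction term, which 34 of 10048 genes passed (0.338%), or 14 without WT replicate 2. No ADAR gene was among them, with an adjusted p above 0.99 for each, so the larger Adarb1 fold of microglia is not shown to differ from that of other classes.

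Across classes, mature neurons took place 1 by mean level for Adar and Adarb1 and place 2 for Adarb2, while the order of the other classes differed. No difference between the genes was tested. Adarb1 had its highest mean over the 4 libraries in mature neurons, at 72.5 ± 24.5 CPM, then in ependymal cells at 67.7 ± 27.1 and oligodendrocyte precursors at 30.6 ± 11.0 CPM (SD, n = 4). These 3 classes overlapped in turn. Astrocytes followed at 10.2 ± 5.28 CPM, below precursors in 4 of 4 libraries and without overlap. Microglia (9.12 ± 3.84), endothelial cells (6.95 ± 2.79), immature neurons (5.57 ± 7.36) and mature oligodendrocytes (2.90 ± 3.22 CPM) came next, each overlapping the class before it. These levels take both genotypes together.

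Against the mean of the other classes, with the library as a term, Adarb1 was called higher in ependymal cells (log2 2.47, SE 0.30, adjusted p = 2.93e-11) and mature neurons (log2 2.30, SE 0.30, adjusted p = 2.33e-10). It was called lower in mature oligodendrocytes (log2 −2.33, SE 0.36, adjusted p = 2.57e-08), a call that was lost without Dp(10)2Yey replicate 2, at −1.52 with an adjusted p = 0.0141. Of 10048 genes, 24.1% were called higher and 11.5% lower in ependymal cells, 22.6% higher and 13.9% lower in mature neurons, and 26.4% higher and 20.2% lower in mature oligodendrocytes. Class calls of this kind are thus common among all genes. In 4 of 4 libraries, both ependymal cells and mature neurons had more Adarb1 CPM than any of astrocytes, microglia, endothelial cells, immature neurons and mature oligodendrocytes.

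Adar was spread more evenly than the others. Its means were 46.0 ± 33.5 CPM in mature neurons, 37.6 ± 16.7 in immature neurons, 32.2 ± 12.2 in endothelial cells, 20.3 ± 2.12 in astrocytes, 16.0 ± 15 in ependymal cells, 14.7 ± 1.56 in microglia, 10.4 ± 2.56 in oligodendrocyte precursors and 7.76 ± 1.66 CPM in mature oligodendrocytes. Every neighbouring pair in this order overlapped, and mature neurons ran from 9.90 CPM on 1 UMI in Dp(10)2Yey replicate 1 to 90.3 CPM on 5 UMIs in WT replicate 1. Adar was called higher in mature neurons (log2 1.08, SE 0.33, adjusted p = 0.00393), a call lost without WT replicate 1 (log2 0.96), WT replicate 2 (1.17) or Dp(10)2Yey replicate 2 (0.95), with adjusted p-values of 0.0232, 0.0253 and 0.0744. It was called lower in mature oligodendrocytes (log2 −1.3, SE 0.27) and in oligodendrocyte precursors (log2 −1.31, SE 0.34), where the call was lost without WT replicate 2, at −1.18 with an adjusted p = 0.0167. Among all genes, 23.8% were called higher and 10.2% lower in oligodendrocyte precursors.

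In endothelial cells, the Adar level had a log2 of 0.91 (SE 0.31) and an adjusted p = 0.0118, short of the threshold. It passed without WT replicate 1, at 1.13 with an adjusted p = 0.00583, with RLE size factors (0.00944) and with 1 more marker required (0.00919), and the adjusted p ran from 0.00583 to 0.296 over the alternatives. Of all genes, 21.1% were called higher and 13.2% lower in endothelial cells. Neither Adar nor Adarb1 was called in microglia, where 32.8% of genes were called higher and 26.1% lower, in astrocytes, where it was 26.1% and 10.2%, or in immature neurons, where it was 14.9% and 12.5%. The 3′ end of Adar (chr3:89715022-89753446, plus strand) overlaps Chrnb2 on the other strand, and whether counting used the strand is not stated. Chrnb2 itself had 35 UMIs in all, 22 of them in WT replicate 2 and 0 in WT replicate 1.

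Adarb2 was limited to few classes. Oligodendrocyte precursors had 80.5 ± 6.24 CPM, with 131 UMIs, and mature neurons had 62.1 ± 45.8 CPM, with 67 UMIs. These overlapped, and together they held 58.7% and 30.0% of all Adarb2 UMIs but 7.01% and 3.45% of all UMIs. Immature neurons followed at 7.27 ± 8.43 CPM on 6 UMIs, below mature neurons in 4 of 4 libraries without overlap. Mature oligodendrocytes had 5 UMIs, microglia 1, and astrocytes, endothelial cells and ependymal cells 0.

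Adarb2 was called higher in oligodendrocyte precursors (adjusted p = 1.19e-22) and in mature neurons (adjusted p = 1.90e-18). In each of the 4 libraries precursors, at 72.5 CPM or more, were above each of the 6 classes other than mature neurons. Fitted folds rest on the prior count where other classes hold no UMI, so lower bounds from a floor of 3 counts over the class are given. Adarb2 in oligodendrocyte precursors was at least 59.5-fold higher than in astrocytes, at least 28.2-fold higher than in endothelial cells and at least 19.9-fold higher than in ependymal cells. For mature neurons the bounds were 61.8-fold, 29.3-fold and 20.6-fold, but only 24-fold, 10.3-fold and 8.45-fold without WT replicate 2. Without Dp(10)2Yey replicate 2 they were 37.2-fold, 19.5-fold and 10.7-fold for precursors and 44.9-fold, 23.5-fold and 12.9-fold for mature neurons. In immature neurons Adarb2 was not called (adjusted p = 0.0109), but it passed without Dp(10)2Yey replicate 1 (0.00459), without the filter on low counts (0.00605) and with 1 more marker required (0.00874), with a range from 0.00459 to 0.308 over the alternatives.

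**Figure D4:**
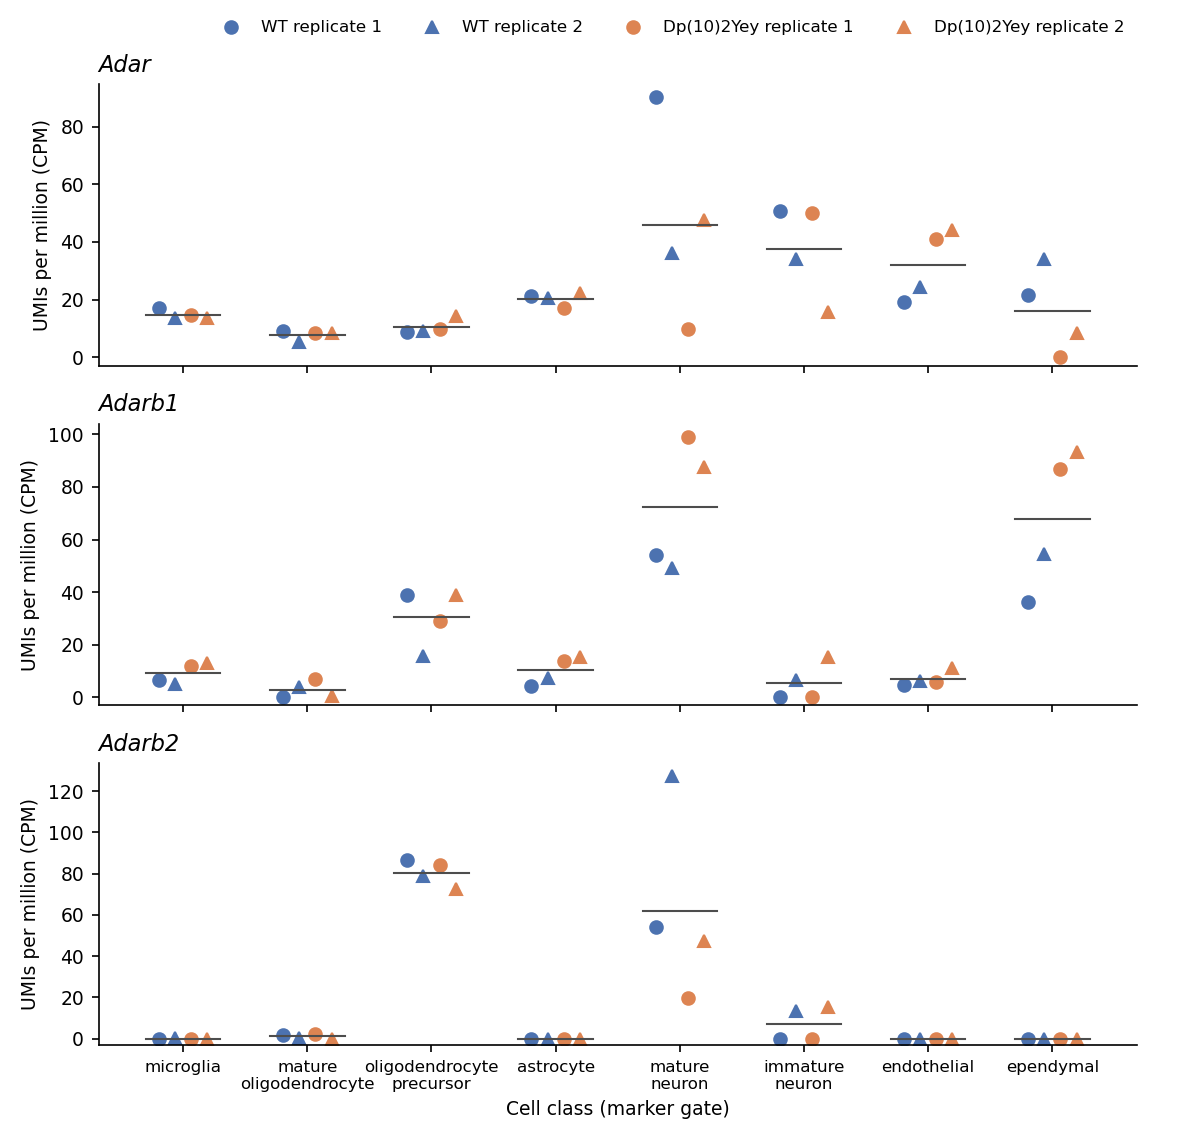
CPM of each ADAR gene in the 8 cell classes, with a point for each of the 4 libraries and a line for their mean. Adarb1 is high in mature neurons and ependymal cells, and Adarb2 in oligodendrocyte precursors and mature neurons.

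Free RNA in the droplets can give UMIs to cells that do not make a transcript, so shares of cells are set beside a class that lacks the gene. Adarb2 had a UMI in 27.2% of oligodendrocyte precursors (99 of 364, median depth 4596 UMIs) and in 18% of mature neurons (29 of 161, median 2397), against 0.0389% of microglia (1 of 2574, median 3672). No astrocyte of 942 had 1. In the cells with at least 1000 UMIs, thinned to 1000 UMIs per cell, the shares were 7.40% in precursors, 7.07% in mature neurons and 0.0098% in microglia. In WT replicates 1 and 2 and Dp(10)2Yey replicates 1 and 2 in turn, precursors gave 20, 35, 35 and 41 Adarb2 UMIs where microglia gave 0, 1, 0 and 0.

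No tested class lacked Adarb1 or Adar. Adarb1 had a UMI in 26.8% of ependymal cells (33 of 123, median depth 2451), 25.5% of mature neurons and 12.4% of oligodendrocyte precursors, against 1.53% of mature oligodendrocytes (16 of 1043, median 4790). In the cells with at least 1000 UMIs, thinned to that depth, the shares were 6.00%, 7.97%, 3.03% and 0.698% in turn. The ependymal share was uneven between libraries. It was 7.27% in WT replicate 1, which held 55 of the 123 cells, and 47.1% in WT replicate 2. In Dp(10)2Yey replicates 1 and 2 it was 35.3% and 44.1%. Thinned, the ependymal shares were 2.67%, 5.49%, 9.50% and 7.84% in the same order of libraries. Microglia had a share of 3.07% with Adarb1, 0.975% when thinned, and how much of it is free RNA was not tested. Adar had a UMI in 16.1% of mature neurons, 13.1% of immature neurons and 12% of endothelial cells, against 3.55% of mature oligodendrocytes. Thinned in the same way, the shares were 3.16%, 2.97%, 3.99% and 0.636%.

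Few cells showed more than 1 member. Of 6262 cells, 704 (11.2%) had a UMI of any ADAR gene and 67 had UMIs of at least 2. Adarb1 and Adarb2 were found together in 30 cells, 16 oligodendrocyte precursors and 14 mature neurons, so all of these were in the classes rich in Adarb2. Adar and Adarb1 were found together in 32 cells, 11 of them mature neurons. In astrocytes and immature neurons no cell showed 2 members.

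Mature neurons were further divided by GABAergic markers such as Gad1 and Gad2. The 9 neurons with at least 2 of these markers held 33 Adarb2 UMIs (374 CPM), 31 of them from WT replicate 2, and the other 152 held 34 (46.7 CPM). The GABAergic value thus comes almost wholly from 1 library and includes the cell with 25 UMIs. Adarb1 had 8 UMIs (90.7 CPM) in the former, all from WT replicate 2, and 48 (66.0 CPM) in the latter. With so few inhibitory neurons, no genotype comparison within them was made.

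Genes with a class profile like that of each member were sought among 11805 genes by Pearson's r over the mean levels of the 8 classes, which share their libraries. Zswim8 (r = 0.989), Iqgap2 (0.979), Slc6a15 (0.977), Sema3e (0.964) and Qrsl1 (0.960) were most like Adarb1, and 60 genes had r above 0.9. Adar was most like Pdlim7 (0.930), Galnt18 (0.910), Fam193b (0.902), Rgp1 (0.901) and Foxj3 (0.895), with 4 genes above 0.9. Adarb2 was most like Slitrk1 (0.996), Tenm1 (0.994), Sntg1 (0.989), Brinp1 (0.989) and Syt16 (0.988), with 145 above 0.9. Among themselves the members were less alike, with r = 0.198 for Adar and Adarb1, 0.170 for Adar and Adarb2 and 0.540 for Adarb1 and Adarb2. These are descriptions over few points and say nothing of shared control.

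Transcripts that ADAR enzymes are known to recode gave no call for genotype. All 26 listed genes were tested in all cells, and 10 lay above 0, beside 51.3% of all genes. The median log2 fold of the 26 was −0.07 beside 0.01 for all genes. Of these genes 2 had an unadjusted p under 0.05, Igfbp7 (−0.50) and Unc80 (−0.49), beside 2.73% of all genes. Igfbp7 is mainly endothelial, at 1426 CPM there and under 9 CPM in the other classes. Endothelial cells made up 4.91% and 4.33% of cells in WT and 3.70% and 3.44% in Dp(10)2Yey, and within them Igfbp7 had a log2 fold of 0.03 (SE 0.21). Whether cell shares bear on the fold of Igfbp7 or Unc80 was not tested. Gria2, which encodes GluA2 and holds the best known ADAR2 site, had 213 and 315 CPM in WT and 222 and 251 CPM in Dp(10)2Yey, with overlap and a log2 fold of −0.16 (SE 0.19). In oligodendrocyte precursors Gria2 had 914 and 1053 CPM in WT and 770 and 775 CPM in Dp(10)2Yey. These groups were apart, as for 14.6% of genes tested there, with a log2 fold of −0.37 (SE 0.15), an unadjusted p of 0.0234 and an adjusted p above 0.99. In mature oligodendrocytes the order was the opposite, at 7.20 and 11.8 CPM in WT and 18.3 and 12.5 CPM in Dp(10)2Yey, as for 14.8% of genes there, and in the other classes where Gria2 was tested the groups overlapped. In all cells Son, a splicing cofactor gene, had −0.06, the coatomer gene Copa 0.05 and the potassium channel gene Kcna1 −0.02. Mature neurons had 126 and 122 CPM of Kcna1 in WT and 59.4 and 106 CPM in Dp(10)2Yey (log2 fold −0.53, SE 0.40). Precursors had 26.0 and 42.8 CPM in WT and 24.1 and 14.2 CPM in Dp(10)2Yey (−0.99, SE 0.49). Both were apart, as for 12.9% and 14.6% of genes there, with adjusted p-values above 0.99. Kcna1 overlapped in mature oligodendrocytes (−0.05, SE 0.18). The median of the list in all cells was 0.06 at its highest without a library, so its sign rests on the libraries used.

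Between classes, the recoded transcripts were most often called higher in mature neurons and oligodendrocyte precursors. Gria2 had a mean of 2143 CPM in mature neurons, 878 in oligodendrocyte precursors and 1.37 CPM in ependymal cells, where Adarb1 was high. Of 24 genes that could be tested between classes, all 24 were called in at least 1 class, as were 94.3% of all genes, and 13 of them were higher in mature neurons, where it was 22.6% of all genes: Cacna1d, Cadps, Cyfip2, Elavl2, Gabra3, Gria2, Gria3, Gria4, Grik2, Kcna1, Tmem63b, Ube2o and Unc80. Also 13 were higher in oligodendrocyte precursors, beside 23.8% of all genes, among them Grik1 and Nova1. To name some others, Azin1, Cdk13, Copa and Son were called higher in microglia (32.8% of all genes). Blcap and Mfn1 were higher in astrocytes (26.1%) and ependymal cells (24.1%), and Flna and Igfbp7 in endothelial cells (21.1%). Many listed genes went the other way. In microglia 5 were called higher and 9 lower, and in endothelial cells 3 higher and 7 lower. Ependymal cells had 4 higher and 4 lower, and mature oligodendrocytes 7 higher and 8 lower. The shares of all genes called lower were 26.1%, 13.2%, 11.5% and 20.2% in turn. The median level difference was 1.70 on the log2 scale in mature neurons and 1.42 in oligodendrocyte precursors, beside −0.06 and 0.06 for all genes. It was −1.53 in microglia and −1.43 in endothelial cells, beside −0.07 and −0.08 for all genes.

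Proteins that bind, import, stabilise or degrade ADAR enzymes were measured by 15 genes in all cells. Of these 9 lay above 0, beside 51.3% of all genes, with a median log2 fold of 0.03 and none called. The ribosomal protein gene Rps14 had −0.16, the splicing factor gene Srsf9 0.10 and the helicase gene Dhx9 −0.01. Between classes, 13 of the 14 that could be tested were called in at least 1 class, as were 94.3% of all genes. In microglia 7 were called higher, beside 32.8% of all genes: Dhx9, Elavl1, Kpna3, Rps14, Srsf9, Stau1 and Wwp2. Among others, Dhx9, Ilf2 and Rps14 were higher in immature neurons (14.9% of all genes) and Kpna1 in mature neurons (22.6%). Dicer1 and Ilf2 were higher in mature oligodendrocytes (26.4%), and Aimp2 in oligodendrocyte precursors (23.8%). In astrocytes 0 were called higher and 4 lower, where 10.2% of all genes were lower. Mature neurons had 2 higher and 2 lower.

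Sensors of double-stranded RNA and their adaptors, the pathway that ADAR1 holds back, showed 3 of 12 tested genes above 0 in all cells, beside 51.3% of all genes. Their median log2 fold was −0.11, with none called. Irf7, an interferon-induced factor, had 9.12 and 5.77 CPM in WT and 2.59 and 4.06 CPM in Dp(10)2Yey. Both Dp(10)2Yey libraries were below both WT libraries, an order that 13% of all genes showed, with a log2 fold of −1.08 (SE 0.41) and an unadjusted p of 0.0297. Irf7 is richest in endothelial cells (42.7 CPM), whose share was smaller in Dp(10)2Yey as given above, and within them the groups overlapped, with a log2 fold of −0.24 (SE 0.45); whether cell shares bear on the Irf7 fold was not tested. The receptor gene Tlr3 had 0.22, the factor gene Irf3 0.01, the RIG-I gene Ddx58 −0.08 and the kinase gene Eif2ak2 −0.41. In microglia Eif2ak2 had 25 and 26.7 CPM in WT and 18.2 and 17.3 CPM in Dp(10)2Yey, without overlap, as for 12.3% of genes tested there, with a log2 fold of −0.59 (SE 0.24), an unadjusted p of 0.0276 and an adjusted p above 0.99. Between classes, the 6 that could be tested were each called in at least 1 class, as were 94.3% of all genes. Ifih1, Irf3, Irf7 and Tlr3 were called higher in both microglia (32.8% of all genes) and endothelial cells (21.1%). Oasl2 was called higher in endothelial and ependymal cells (24.1% in the latter).

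Of the other adenosine deaminases of RNA, only the transfer RNA deaminase genes Adat1 and Adat2 were seen in more than 3 cells, out of 5 listed. Adat1 had 93 UMIs and a log2 fold of −0.17 (SE 0.44), and Adat2 had 143 UMIs and −0.07 (SE 0.39), with overlapping groups for both. Of the 44 genes of the 4 lists that could be tested for interaction, which leaves out Adat1, Adat2 and most sensors, 0 passed.

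**Figure D5:**
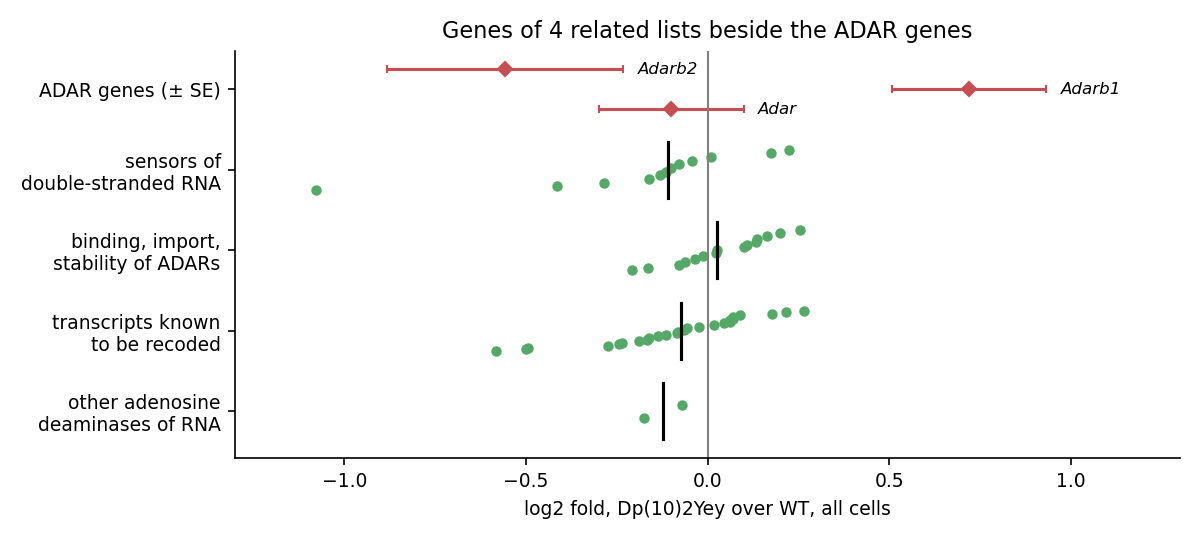
Log2 fold of Dp(10)2Yey over WT in all cells for the tested genes of 4 lists, with a black line at each list's median, and for the ADAR genes with SE. Adarb1 at 0.72 lies to the right of every listed gene.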

How the data were processed

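The deposited matrices hold UMI counts per gene and barcode, which the authors made with Cell Ranger 3.0.2 from 10x 3′ reads on mm10 with a custom reference. Barcodes with at least 200 genes were kept, and 19 red blood cells were removed. Classes were marker gates (at least 3 of 8 markers, a lead of at least 1), and 54 called doublets (0.862%) were kept. UMIs were summed per library over all cells or a class with at least 10 cells per library. Tests used edgeR 4.0.16 (quasi-likelihood, filterByExpr, TMM, Benjamini-Hochberg over all genes tested, adjusted p below 0.01) in R 4.3.3. For alternatives, DESeq2 1.42.0 and scanpy 1.11.5 (Leiden clusters) were used. The fits were also run on simulated data, and no result of that run is given here. It does not show whether the fits can detect the copy ratio in genes as sparse as the ADAR genes. Interaction and level tests had terms for library and class. The members and lists were chosen with earlier results of these data known. Named were the 3 members in every comparison, the 4 members of each list with the most UMIs and any past the threshold, the nearest tested gene on each side of Adarb1, and the 5 genes most like each member (r on log2 of CPM + 10, at least 100 UMIs). Library depth ran from 2960353 to 8874367 UMIs, and a count of 0 was read against a floor of 3 counts. Ddx15 and Oas1b were not analysed, and some listed genes are not reported here. Alternatives changed 1 choice at a time: size factors, tool, low-count filter, replicate block, doublets, mitochondrial share, thinning, gates, clusters and each library left out.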

Additional observations from a re-analysis of the deposited data

How the results depend on the processing

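Of 454 values recomputed under another choice, 417 kept their direction and side of the threshold or moved little. The Adarb1 log2 fold was above 0 in all 15 settings for all cells (0.62 to 0.98) and in all 15 for microglia (0.93 to 1.24), and in no setting did a member pass the genotype test. Genes called in all cells numbered 0 by edgeR, 3 by DESeq2 and 0 to 12 with a library left out. Within classes, edgeR called 0 in all, but 2 by DESeq2, 95 without the filter on low counts, 36 with the replicate block, 4 without cells over 20% mitochondrial UMIs, 6 with thinned sums, 1 with 1 more marker required (Gm26870 in ependymal cells), 8 with a lead of 2 markers, 9 with Leiden clusters and 53 to 184 with a library left out. The 4 were Gm26870, Gm42418 and Lars2 in astrocytes and Gm42418 in mature neurons. Genes past the interaction test, 34, numbered 14 to 36 with a library left out. Directions turned for Adar in all cells with thinned sums (0.22), Adarb2 in oligodendrocyte precursors with thinned sums (0.27), the Adar level in microglia with RLE size factors (−0.013), and the difference in Adarb1 UMIs per Adar UMI within oligodendrocyte precursors (−0.25) and endothelial cells (−0.0536). With a library left out, log2 folds ran from −0.10 to 0.62 for Adar in mature oligodendrocytes, −0.24 to 0.040 for Adar in astrocytes, −0.16 to 1.09 for Adarb1 and −0.17 to 0.018 for Adarb2 in oligodendrocyte precursors, and −1.02 to 0.065 for the Adar level in ependymal cells. In each of these the cause was not tested. A genotype left with 1 library is assumed to vary like the other. With replicate numbers as a block, which nothing states to be preparation days, Adarb1 in all cells was 0.73 (adjusted p above 0.99), Adar −0.10 and Adarb2 −0.53, and deviations of equal numbers correlated at −0.000904 over 13804 genes. Crossed pairs, and leaving out ependymal cells or cells in no class, were chosen after seeing the data, and the crossed pairs were not run because that correlation was not below −0.1. Outside microglia, mature neurons, ependymal cells and precursors, Adarb1 had 5 to 27 UMIs in each of the other tested classes.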

Other observations

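Classes too small for a test held a few ADAR UMIs. Choroid plexus epithelium, which makes cerebrospinal fluid, had 60 cells with 10 Adarb1 UMIs (55.5 CPM), at 41.2 and 53.4 CPM in WT and 0 and 72.8 CPM in Dp(10)2Yey. Its neighbours in the ventricle wall, the ependymal cells, had 74.3 CPM pooled. Choroid plexus cells held 2 Adar and 0 Adarb2 UMIs. Differentiating oligodendrocytes, 44 cells between precursors and mature cells, held 10 Adarb2 UMIs (28.1 CPM), 8 Adar UMIs (22.5 CPM) and 1 Adarb1 UMI. Their Adarb2 value lay between the pooled 79.1 CPM of precursors and 0.954 CPM of mature oligodendrocytes. The 44 Cajal-Retzius neurons held 3 Adarb1 UMIs, all in Dp(10)2Yey replicate 2, 1 Adar UMI and 0 Adarb2 UMIs. No difference between genotypes was tested in these cells.

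Of the genes next to Adarb1 in the duplicated segment, Pofut2 could be tested in 6 classes and Fam207a in 4, where Adarb1 could be tested in 4. Pofut2 had a log2 fold of 0.34 (SE 0.21) in microglia, 0.57 (SE 0.24) in mature oligodendrocytes, 0.70 (SE 0.29) in oligodendrocyte precursors, −0.12 (SE 0.35) in astrocytes, 0.40 (SE 0.47) in endothelial cells and 1.24 (SE 0.40) in ependymal cells. Fam207a had 0.57 (SE 0.24) in microglia, 0.17 (SE 0.41) in mature oligodendrocytes, 0.69 (SE 0.56) in oligodendrocyte precursors and 1.42 (SE 0.57) in astrocytes. Of these 10 values 9 lay above 0, and none passed the threshold, with adjusted p-values above 0.99.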
